A study of Bos taurus with 15 samples.

Results

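The genes described here encode the coats, channels and tethers that carry newly made proteins into the endoplasmic reticulum (ER) and on to the Golgi apparatus, followed from the bovine oocyte to the blastocyst. They were chosen by gene symbol alone: SEC, TMED, SSR, SRP and ARF followed by a digit, the COPA, COPB, COPE, COPG and COPZ coatomer symbols, SPCS, ARFGAP, TRAPPC and GOLGA symbols, TGOLN2 and the 3 KDEL receptors. The rule found 76 of the 9155 genes named on the array, with 113 probe sets, and each gene is given by its probe set of highest mean over all arrays. The rule itself uses no signal level to choose the genes, only to choose the probe set of each, and all 76 were tested. The genes were chosen with earlier results of these data known. Total RNA of oocytes and embryos was amplified in 3 rounds and hybridised to the Affymetrix Bovine Genome array, a short-oligonucleotide array read in 1 colour. There were 3 arrays of oocytes, 2 of 1-cell embryos, 3 of morulae and 3 of blastocysts, which the labels call biological replicates, and 1 array each of 2-cell, 4-cell, 8-cell and 16-cell embryos. The labels give 1 protocol for all 8 groups. Oocytes were aspirated from ovarian follicles with their cumulus and matured in vitro for 20 h with LH and FSH. They were then fertilised in vitro, freed of cumulus by vortexing after fertilisation and cultured in SOF medium. The steps from fertilisation on can apply only to the embryo groups, not to the oocyte group. No treatment or genotype differed between groups, and the number of oocytes or embryos pooled per array and the moment at which the oocyte samples were taken are not stated in the labels. The study compared stages, so each question below is which of these transcripts differ between one stage and another.

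Proteins to be secreted or placed in membranes are recognised as they emerge from the ribosome by the signal recognition particle, threaded through the SEC61 channel into the ER and freed of their signal peptide by signal peptidase. COPII-coated vesicles carry them from ER exit sites towards the Golgi, COPI-coated vesicles bring escaped ER proteins back, and tethers such as the TRAPP complexes and the golgins catch the arriving vesicles. In the oocyte this route makes the zona pellucida and the cortical granules, and the early embryo lives on stored maternal transcripts until its own genome is activated, which in cattle occurs late in cleavage.

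The 15 arrays had mean signals of 557.6 to 716.7 and medians of 39.67 to 61.7, and their small number per stage limits the precision. All values are signals on the linear scale of the deposited table, and differences are log2 differences of signal + 16, the later stage minus the earlier, which understates changes of dim genes. Poly(A) spike-in controls gave signal on 9 arrays (oocyte 2 and 3, 1-cell 2, the 4 single arrays, morula 3 and blastocyst 3) and none on 6. The ratio of the cyclophilin control's middle to 3′ probe sets, a measure of how far the amplified RNA extends, was 0.0141 to 0.102 on oocyte arrays, 0.178 to 0.322 on morula arrays and 0.499 to 0.766 on blastocyst arrays, so these 3 stages did not overlap. It was 0.562, 0.0229, 0.0115 and 0.475 on the 2-cell, 4-cell, 8-cell and 16-cell arrays. The same ratio of the GAPDH control was 0.0374 to 0.237 on oocyte, 0.1 to 0.625 on morula and 0.339 to 0.643 on blastocyst arrays. For GAPDH the oocyte and blastocyst arrays did not overlap, and the morula arrays overlapped both. That of the eIF-4E control overlapped between stages (0.0388 to 0.235 on oocyte and 0.049 to 0.163 on blastocyst arrays). Their part in the results below was not tested. All 8 measured oocyte markers were lower in the morula, their summed signal being 30012.0 to 53125 on oocyte arrays, 11710.0 on the 16-cell array and 1008 to 1376 on morula arrays. Of 15 cumulus and granulosa markers 1 was higher and 3 were lower in the morula, with sums of 6459 to 7163 on oocyte and 9652 to 11441 on morula arrays. Of these 15, 4 were under 50 on every oocyte array (CYP19A1, CYP11A1, FSHR and AMH). On every morula array 7 were under 50 (TNFAIP6, PTX3, CYP19A1, CYP11A1, FSHR, FST and HSD3B1). The others reached 50 on at least 1 array of the stage. Of 8 stromal markers 1 was higher, with sums of 379 to 819 in the oocyte, 4723 on the 16-cell array, 1744 to 2563 in the morula and 922 to 4908 in the blastocyst. The collagens COL1A1 and COL3A1 and POSTN were under 50 on the 16-cell and morula arrays, whereas DCN and VIM, under 50 on the 8-cell array, were above it on the 16-cell array and on morula 3. On every blastocyst array 5 of the 8 were under 50 (COL1A1, COL3A1, DCN, VIM and POSTN), so that sum rests on the other genes. Higher in the morula were 1 of 6 blood markers (sums 171 to 265 in the oocyte and 452 to 1719 in the morula), 1 of 5 sperm markers (169 to 199 and 833 to 1205) and 4 of 6 trophectoderm markers (152 to 212 and 9441 to 17724). On every morula array 2 blood markers (HBA and PTPRC), 2 sperm markers (PRM1 and TNP1) and 1 trophectoderm marker (TFAP2A) were under 50. The part of these cell type markers in the results was not tested, and in such bulk samples fewer cells of a type and less RNA per cell cannot be told apart.

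Between the oocyte and the morula 16 of the 76 genes rose and 8 fell, by limma with Benjamini-Hochberg adjustment over 24016 probe sets at 0.05. That is 21.1% and 10.5% of the genes, close to the 17.7% higher and 8.63% lower among all 9155 named genes. The median difference over the 76 genes was 0.34, against 0.14 over all named genes, and the other 52 genes did not pass, 38 of the 76 having an unadjusted p under 0.05. The 76 genes were brighter than most, with median signals per array of 606 to 1398 against 98.1 to 229 for all named genes. Changes of dim genes are understated. The part of brightness in this and later comparisons with all named genes was not tested. The genes that rose were of ER entry (SSR2, SSR4, SRP68, SRP9, SEC11A, SPCS1 and SPCS3), cargo receptors (TMED1, TMED2 and TMED3) and the Golgi (GOLGA4, GOLGA5 and TGOLN2), with COPZ1, ARFGAP3 and TRAPPC1 besides. The genes that fell were SEC61A2, the COPII genes SEC16B and SEC23A, ARF4, TRAPPC2, TRAPPC6B, GOLGA7 and GOLGA7B. With each array centred on its median the counts were 15 higher and 11 lower, and after quantile normalisation 14 and 11. With the replicate number as a block they were 22 and 12. The count of falls was 4 without oocyte array 1, 5 without oocyte array 2 and 5 without morula array 2. The median of all probe sets moved from 0.04 to -0.14 under centring and -0.06 under quantile normalisation.

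**Figure D1:**
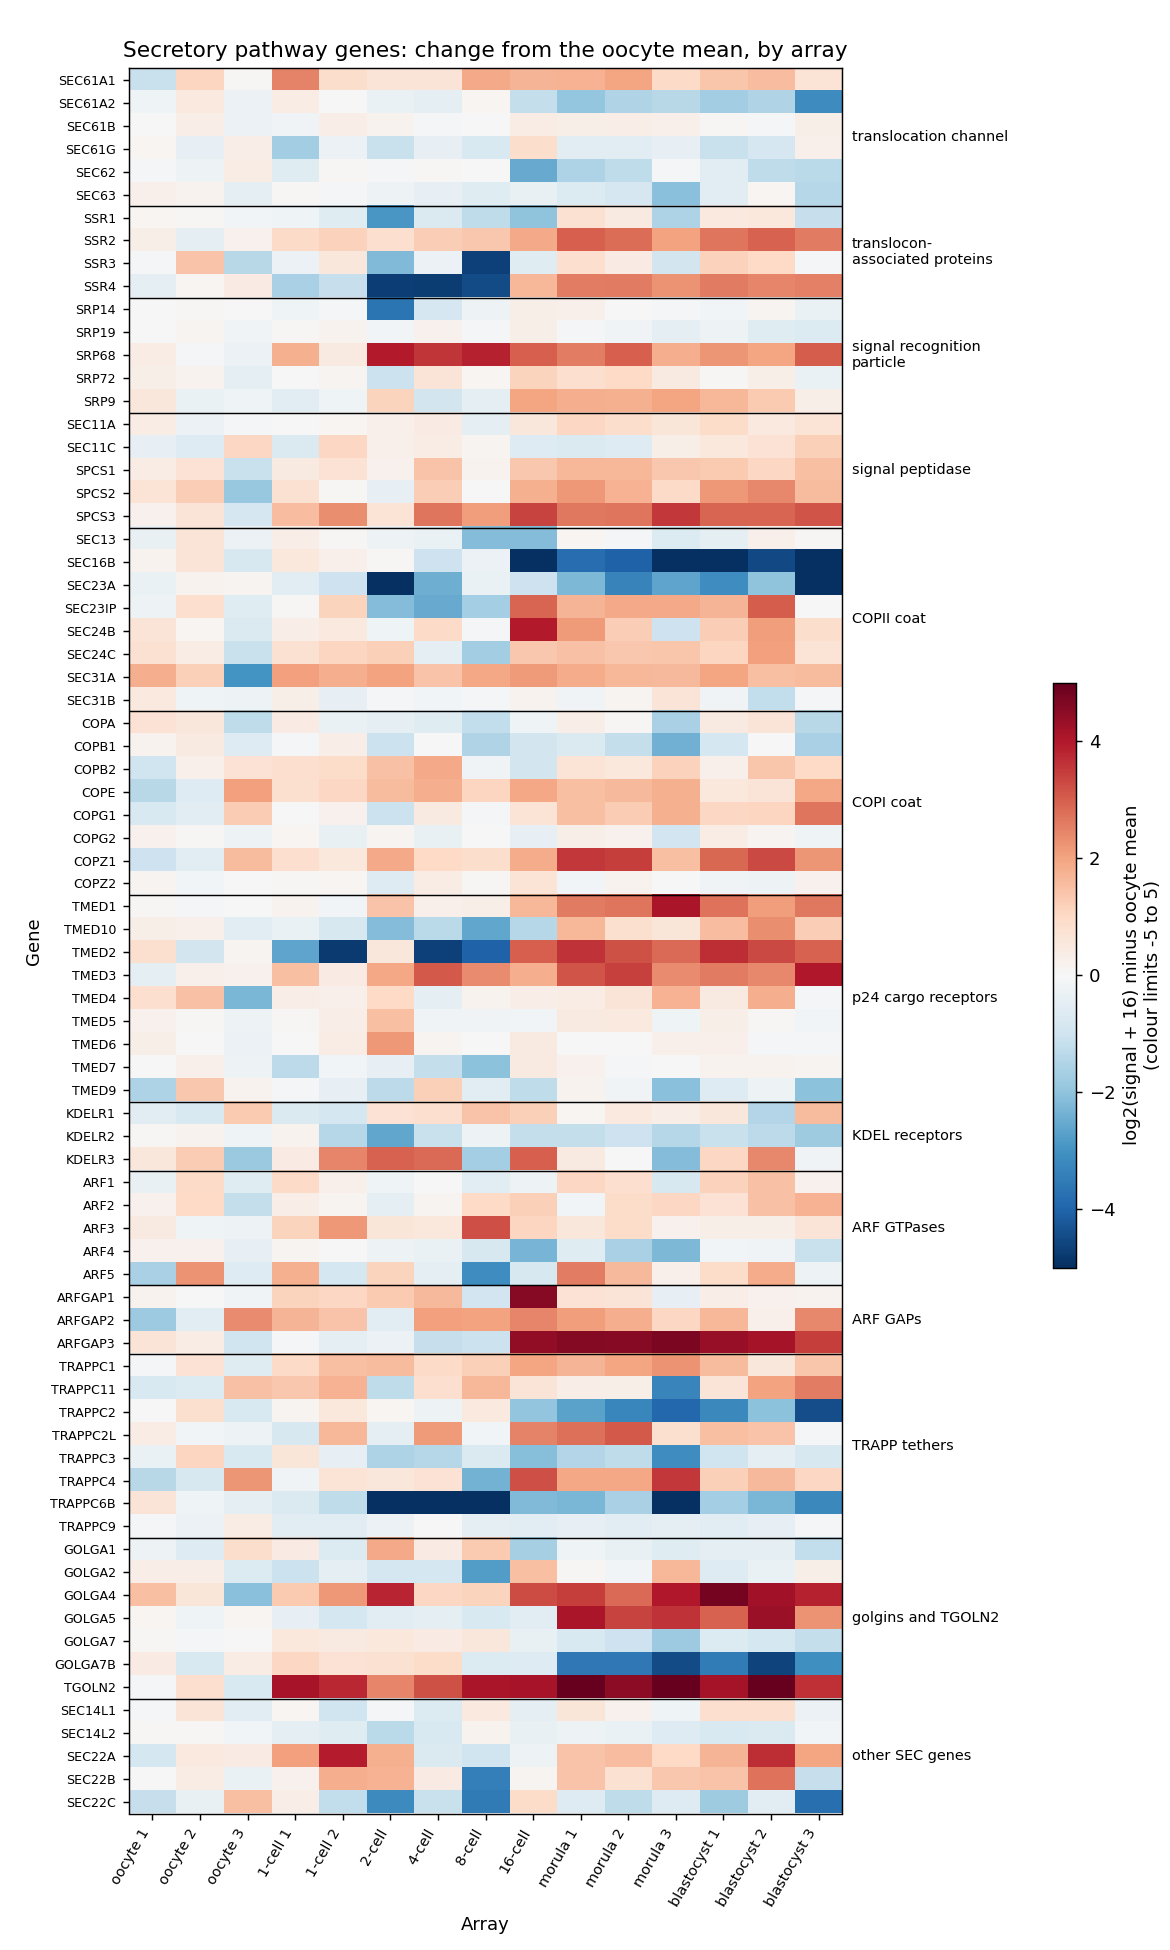
Each row is 1 of the 76 genes, grouped by role, and each column 1 of the 15 arrays; the colour is log2(signal + 16) minus the gene's mean over the 3 oocyte arrays, red for higher and blue for lower, with colours limited to -5 and 5. ARFGAP3, GOLGA4 and TGOLN2 are dark red in the morula and blastocyst, SEC16B and GOLGA7B dark blue, and SSR4, TMED2 and TRAPPC6B are dark blue on single cleavage arrays.

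**Figure D2:**
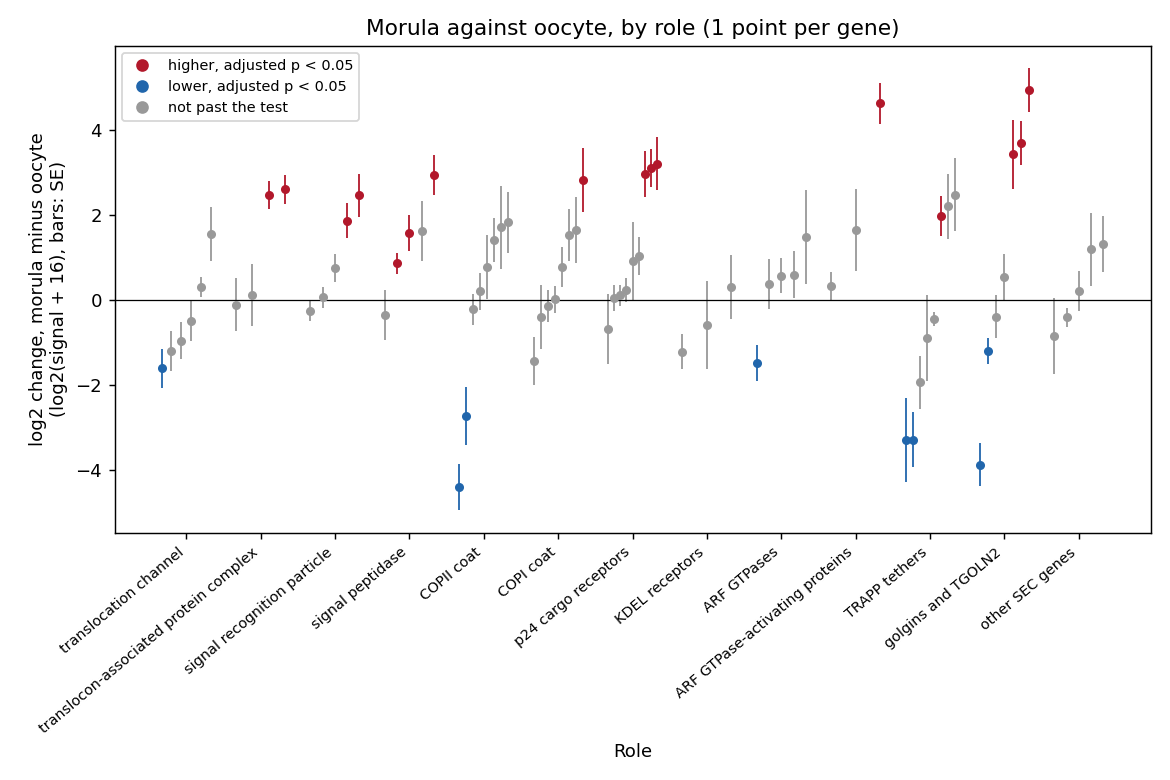
Points give each gene's log2 difference of signal + 16 between the 3 morula and the 3 oocyte arrays by role, and bars its standard error; red and blue points passed the test (adjusted p under 0.05). The 16 red points are spread over 8 of the 13 roles and the 8 blue points over 5.

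The signal recognition particle binds the signal peptide and pauses translation, and 2 of its 5 measured subunits rose from the oocyte to the morula while none fell. SRP68, part of the particle's protein core, had signals of 163, 113 and 97.0 on the oocyte arrays and 807, 1077 and 468 on the morula arrays. SRP68 differed by 2.46 (SE 0.51, adjusted p = 0.0075). Its 2-cell, 4-cell and 8-cell signals of 2141, 1611 and 1973 were above every oocyte and every morula array. SRP9, which with SRP14 forms the domain that slows elongation, read 1578, 840.0 and 923 in the oocyte and 3824, 3732 and 4201 in the morula. SRP9 differed by 1.85 (SE 0.41, adjusted p = 0.011), and the stages did not overlap. Its partner SRP14 read 4227, 4463 and 4251 in the oocyte and 5110.4, 4268 and 4159.7 in the morula, with a difference of 0.06 (95% interval -0.49 to 0.61), and 324 on the 2-cell array. SRP19, needed for the particle's assembly, had signals of 4631 to 5628 in the oocyte and 3728 to 4795 in the morula and a difference of -0.25 (95% interval -0.78 to 0.28). SRP72, which pairs with SRP68, did not pass at 0.76.

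Of the 6 channel genes 1 fell and none rose. SEC61A2, one of the 2 copies of the pore-forming subunit, read 3652, 6003 and 3478 in the oocyte, 1873 on the 16-cell array and 1096, 1497 and 1591 in the morula. The oocyte and morula arrays did not overlap, and the difference was -1.61 (SE 0.45, adjusted p = 0.0327). The other copy, SEC61A1, read 96.7, 495 and 241 in the oocyte and 800.3, 943 and 464 in the morula. SEC61A1 differed by 1.55 (SE 0.64, adjusted p = 0.124) and did not pass. The difference between the 2 copies was not tested. The small beta subunit SEC61B read 6025 to 9122 in the oocyte and 8746 to 9307 in the morula, with a difference of 0.30 (95% interval -0.23 to 0.83). SEC61G, the gamma subunit, gave -0.49, and the channel partners SEC62 and SEC63, which serve proteins inserted after translation, gave -0.96 and -1.22, none of them past the test. SEC61A2 missed the threshold between oocyte and morula without morula array 1 (adjusted p = 0.107), without morula array 2 (0.0769), without oocyte array 1 (0.0626) and without oocyte array 2 (0.117). For SEC61A2 the same held with the mean of all its probe sets (0.657). SEC62 passed between oocyte and morula without morula array 3 (adjusted p = 0.032) and without the arrays numbered 3 (0.0398). SEC63 passed between oocyte and morula without the arrays numbered 3 (adjusted p = 0.0322). For SEC63 between oocyte and morula, in 4 other settings (with each array centred on its median, after quantile normalization, with the replicate block and with the spike-in class as a term) the adjusted p was 0.0157 to 0.0401, past the threshold.

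The translocon-associated protein complex sits beside the channel and aids the entry of some signal sequences, and its beta and delta subunits rose while alpha and gamma did not pass. SSR2, the beta subunit, read 1238, 718 and 1194 in the oocyte, 1969.8 and 2282 at the 1-cell stage and 1857, 2432, 2605 and 3875 on the 4 single arrays in order of stage, then 8156, 7172 and 4176 in the morula. Each single array lay above every oocyte array and below every morula array, and the difference was 2.60 (SE 0.34, adjusted p = 6.39e-04). SSR4, the delta subunit, took another course to a like difference: it read 1137, 1679 and 2087 in the oocyte, 498 and 699 at the 1-cell stage, and 46.1, 43.7 and 55.5 on the 2-cell, 4-cell and 8-cell arrays. It then read 5039 on the 16-cell array and 9509, 9694 and 7519.7 in the morula, 2.47 (SE 0.33, adjusted p = 6.94e-04) above the oocyte. SSR1, the alpha subunit, gave -0.12 and SSR3, the gamma subunit, 0.11. SSR3 read 789, 23.3 and 634 on the 4-cell, 8-cell and 16-cell arrays.

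Signal peptidase cuts off the signal peptide in the ER lumen, and 3 of its 5 genes rose. SPCS3, an accessory subunit, read 128, 176 and 53.6 in the oocyte and 762, 773 and 1409 in the morula. SPCS3 differed by 2.94 (SE 0.47, adjusted p = 0.00191), the largest of the 5. SPCS1, another accessory subunit, read 2471, 3128 and 875 in the oocyte and 6061, 6091 and 4886 in the morula. SPCS1 differed by 1.57 (SE 0.43, adjusted p = 0.03) with no overlap. SEC11A, a catalytic subunit, was bright throughout, at 6370.5, 3962 and 4551 in the oocyte and 10107, 9051 and 7496 in the morula, and its difference of 0.86 (SE 0.25, adjusted p = 0.0406) was the smallest of the 24 that passed. SPCS2 had a wide oocyte spread, 3482, 5008 and 560.5, against 9776, 7143 and 4157 in the morula, and did not pass at 1.62 (SE 0.71, adjusted p = 0.153), though all morula arrays except morula 3 lay above every oocyte array. The second catalytic gene, SEC11C, read 54.1 to 207 in the oocyte and 48.8 to 115 in the morula (-0.36). SPCS1 missed the threshold between oocyte and morula without morula array 1 (adjusted p = 0.088) and without morula array 2 (0.0927). For SPCS1 the same held in a fit of the compared stages alone (0.0921) and after quantile normalization (0.0534). SPCS1's difference between oocyte and morula was 1.02 without oocyte array 3. SPCS3's difference between oocyte and morula was 2.23 without the arrays numbered 3. SEC11A missed the threshold between oocyte and morula without morula array 1 (adjusted p = 0.133), without morula array 2 (0.118), without oocyte array 2 (0.13), without oocyte array 3 (0.0754) and without the arrays numbered 3 (0.0522). For SEC11A between oocyte and morula, in 4 other settings (with each array centred on its median, in a fit of the compared stages alone, after quantile normalization and with the spike-in class as a term) the adjusted p was 0.0502 to 0.0904. SPCS2 passed between oocyte and morula with the replicate block (adjusted p = 0.0447).

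Among the 8 COPII genes, whose products coat vesicles leaving the ER, 2 fell and none rose. SEC16B, a scaffold of ER exit sites, read 3975, 5423 and 1972 in the oocyte and still 3671, 1687 and 2844 on the 2-cell, 4-cell and 8-cell arrays, then 64.7 on the 16-cell array and 237, 195 and 67.6 in the morula. Its difference of -4.41 (SE 0.54, adjusted p = 4.24e-04) was the largest fall of the 76 genes. SEC23A, an inner-coat subunit that also stimulates the SAR1 GTPase, read 711, 1014 and 977 in the oocyte and 175, 73.8 and 129 in the morula. SEC23A differed by -2.74 (SE 0.68, adjusted p = 0.019), and read 9.13, 152 and 705 on the 2-cell, 4-cell and 8-cell arrays. The cargo-binding SEC24B and SEC24C gave 0.77 and 1.41, and SEC23IP, a partner of SEC23, 1.82, none of them past the test. The outer-coat SEC31A read 10027, 6574 and 348 in the oocyte, so 1 oocyte array stood far below the others, and 10399, 9106 and 8781 in the morula (1.71, SE 0.98, adjusted p = 0.272). Its outer-coat partner SEC13 gave -0.23 and the second SEC31 gene, SEC31B, 0.20. SEC23A missed the threshold between oocyte and morula without morula array 2 (adjusted p = 0.0752) and without oocyte array 2 (0.0621). For SEC23A the same held with the mean of all its probe sets (0.0735). SEC23IP passed between oocyte and morula with the replicate block (adjusted p = 0.0471). SEC24C passed between oocyte and morula with the replicate block (adjusted p = 0.0487).

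The p24 family, the TMED genes, are cargo receptors that cycle between ER and Golgi, and 3 of 9 rose while none fell. TMED2 read 906, 262 and 560.4 in the oocyte, 69.7 and 3.12 at the 1-cell stage, 762, 4.86 and 16.4 on the 2-cell, 4-cell and 8-cell arrays, 4192 on the 16-cell array and 6446, 4727 and 3771 in the morula. It was thus low on both 1-cell arrays and on the 4-cell and 8-cell arrays but not on the 2-cell array, and the morula exceeded the oocyte by 3.21 (SE 0.62, adjusted p = 0.0053). TMED1 was even across the oocyte arrays, 79.3, 71.2 and 76.1, and read 536, 563 and 1517 in the morula. TMED1 differed by 3.11 (SE 0.45, adjusted p = 0.00105). TMED3 read 31.7, 62.0 and 61.6 in the oocyte and 568, 681 and 325 in the morula. TMED3 differed by 2.97 (SE 0.54, adjusted p = 0.00386), with 530.4 already on the 4-cell array. TMED10, the usual partner of TMED2, read 1459, 1396 and 795 in the oocyte, 248, 450.1, 181 and 429 on the single arrays and 3739, 2082 and 1807 in the morula. It did not pass at 1.03 (SE 0.45, adjusted p = 0.148), although the morula arrays all lay above the oocyte arrays. TMED7 had a difference of 0.04 (95% interval -0.66 to 0.74), and TMED4, TMED5, TMED6 and TMED9 gave 0.90, 0.23, 0.11 and -0.69. TMED10 passed in morula against oocyte with the mean of its 2 probe sets, at an adjusted p of 0.0222.

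Of the 8 coatomer genes, which build the COPI coat of Golgi-to-ER vesicles, 1 rose. COPZ1, the zeta subunit, read 119, 176 and 834 in the oocyte and 3200.2, 3075 and 769 in the morula. COPZ1 differed by 2.82 (SE 0.76, adjusted p = 0.0269); the stages overlapped, morula 3 lying below oocyte 3. The second zeta gene, COPZ2, was dim, at 135 to 166 in the oocyte and 133 to 171 in the morula, with a difference of 0.01 (95% interval -0.69 to 0.71). COPA and COPB1, the alpha and beta subunits, gave -0.41 and -1.43, and COPB2, the beta prime subunit, 0.78. The gamma subunit gene COPG1 gave 1.53 and the epsilon subunit gene COPE 1.64, both with oocyte 3 far above the other oocyte arrays (288, 343 and 1217 and 178, 313 and 2079). COPG2 stayed under 100 on every array (-0.15). COPZ1 missed the threshold between oocyte and morula without morula array 1 (adjusted p = 0.0963), without morula array 2 (0.0983), without oocyte array 1 (0.0972) and without oocyte array 2 (0.0929). For COPZ1 the same held with the mean of all its probe sets (0.0509) and in a fit of the compared stages alone (0.085). COPZ1's difference between oocyte and morula was 3.49 without morula array 3, 3.62 without oocyte array 3 and 4.29 without the arrays numbered 3. COPE passed between oocyte and morula without oocyte array 3 (adjusted p = 0.00485) and without the arrays numbered 3 (0.00176). COPG1 passed between oocyte and morula without oocyte array 3 (adjusted p = 0.0189) and without the arrays numbered 3 (0.00254). For COPG1 the same held with the replicate block (0.029) and with the spike-in class as a term (0.0385). COPB1 passed between oocyte and morula with the replicate block (adjusted p = 0.0234).

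The 3 KDEL receptors, which return ER-resident proteins that reach the Golgi, all missed the threshold in the morula. KDELR2 came nearest: it read 5819, 6364 and 4876 in the oocyte, 2462, 2756 and 2091 in the morula and 2612, 2278 and 1659 in the blastocyst. The oocyte arrays lay above all morula and blastocyst arrays. KDELR2 differed by -1.22 (SE 0.41, adjusted p = 0.0638) in the morula and -1.39 (SE 0.41, adjusted p = 0.0376) in the blastocyst, where it passed. KDELR1 read 810.1, 713 and 3022 in the oocyte and 1293, 1690.0 and 1506 in the morula (0.30, SE 0.75, adjusted p = 0.836). KDELR3 varied most, with 184, 311 and 21.1 in the oocyte, 1030.4, 941, 25.6 and 1054 on the single arrays and 165, 115 and 14.0 in the morula (-0.59, SE 1.03, adjusted p = 0.753). For KDELR2 between oocyte and morula, in 7 settings (with each array centred on its median, in a fit of 1 averaged row per named gene, where its own signals are unchanged, in a fit of the compared stages alone, after quantile normalization, with the replicate block, with the spike-in class as a term and without the dimmest probe sets) the adjusted p was 0.0202 to 0.0491, past the threshold. KDELR2 missed the threshold between oocyte and blastocyst without blastocyst array 1 (adjusted p = 0.0623), without blastocyst array 2 (0.0801), without blastocyst array 3 (0.102), without oocyte array 1 (0.0958), without oocyte array 2 (0.109) and without the arrays numbered 3 (0.0887).

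ARF GTPases recruit coats to Golgi membranes and their GTPase-activating proteins end the cycle. Of the 5 ARF genes 1 fell, ARF4. It read 12237, 12257 and 8046 in the oocyte, 2118 on the 16-cell array, 6912, 3490.3 and 2259 in the morula and 9604, 9406 and 4952 in the blastocyst. ARF4 differed by -1.49 (SE 0.42, adjusted p = 0.0343). ARF1, the main recruiter of COPI, gave 0.36 (SE 0.59, adjusted p = 0.731), and ARF2, ARF3 and ARF5 gave 0.59, 0.57 and 1.48, with ARF3 at 1725 on the 8-cell array against 202 to 337 in the morula. Of the 3 ARFGAP genes 1 rose, ARFGAP3, which acts on the COPI cycle at the Golgi. It read 227, 185 and 63.3 in the oocyte and 112, 55.6 and 57.7 on the 2-cell, 4-cell and 8-cell arrays, then 3423 on the 16-cell array and 3806, 3706 and 4056 in the morula. The morula exceeded the oocyte by 4.62 (SE 0.48, adjusted p = 1.67e-04), and the blastocyst exceeded the oocyte by 4.00 (SE 0.48, adjusted p = 3.79e-04). ARFGAP2, which also acts on COPI, read 63.1, 169.7 and 1413 in the oocyte and did not pass (1.64, SE 0.95, adjusted p = 0.278). ARFGAP1 read 1231 on the 16-cell array and no more than 149.9 on any other (0.31). ARF4 missed the threshold between oocyte and morula without morula array 2 (adjusted p = 0.101), without morula array 3 (0.0904), without oocyte array 1 (0.104) and without oocyte array 2 (0.105). For ARF4 the same held in a fit of the compared stages alone (0.0741). ARFGAP2 passed between oocyte and morula without oocyte array 3 (adjusted p = 0.0168) and without the arrays numbered 3 (0.00636).

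The TRAPP complexes tether vesicles and activate RAB1, and of the 8 TRAPPC genes 1 rose and 2 fell. TRAPPC1, a core subunit, read 157, 292 and 106 in the oocyte and 596, 709.6 and 857 in the morula. TRAPPC1 differed by 1.97 (SE 0.46, adjusted p = 0.0143). TRAPPC2, another core subunit, read 743, 1313 and 436 in the oocyte, 801, 629.8, 1061 and 180.3 on the single arrays and 104, 64.4 and 34.5 in the morula. TRAPPC2 differed by -3.29 (SE 0.65, adjusted p = 0.00603). TRAPPC6B, also of the core, read 3553, 1982 and 1671 in the oocyte, 1359 and 927 at the 1-cell stage, 13.2, 9.27 and 13.6 on the 2-cell, 4-cell and 8-cell arrays, 484 on the 16-cell array and 450.0, 722 and 20.4 in the morula, where morula 3 was far below the others. Its difference was -3.30 (SE 0.98, adjusted p = 0.0412). The core genes TRAPPC3, TRAPPC4 and TRAPPC2L gave -1.94, 2.47 and 2.21, and TRAPPC11 and TRAPPC9, subunits of the larger TRAPP complexes, gave -0.89 and -0.45, none of them past the test; TRAPPC9 stayed under 100 on every array.

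Several TRAPPC calls changed with the setting or with 1 array. TRAPPC1 missed the threshold between oocyte and morula without the arrays numbered 3 (adjusted p = 0.0507). TRAPPC2 missed the threshold between oocyte and morula with the mean of all its probe sets (adjusted p = 0.203). TRAPPC6B missed the threshold between oocyte and morula without morula array 1 (adjusted p = 0.0511), without oocyte array 1 (0.126), without oocyte array 2 (0.0918) and without oocyte array 3 (0.0585). For TRAPPC6B the same held in a fit of the compared stages alone (0.108) and with a pseudocount of 1 (0.0525). TRAPPC6B's difference between oocyte and morula was -4.14 without morula array 2, -1.97 without morula array 3 and -2.19 without the arrays numbered 3. TRAPPC3 passed between oocyte and morula without oocyte array 3 (adjusted p = 0.0353). For TRAPPC3 between oocyte and morula, in 6 other settings (with each array centred on its median, in a fit of 1 averaged row per named gene, where its own signals are unchanged, after quantile normalization, with the replicate block, with the spike-in class as a term and without the dimmest probe sets) the adjusted p was 0.0239 to 0.0422, past the threshold. TRAPPC4 passed between oocyte and morula without oocyte array 3 (adjusted p = 0.00247) and without the arrays numbered 3 (0.00176). For TRAPPC4 the same held with the replicate block (0.0357) and with the spike-in class as a term (0.035). TRAPPC2L passed between oocyte and morula without morula array 3 (adjusted p = 0.0235) and without the arrays numbered 3 (0.0244). For TRAPPC2L the same held with the replicate block (0.0314). TRAPPC9 passed between oocyte and morula without oocyte array 2 (adjusted p = 0.0417).

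Among the GOLGA genes and TGOLN2, 3 of 7 rose and 2 fell. TGOLN2, a protein that cycles between the trans-Golgi network and the cell surface, read 74.2, 149 and 38.2 in the oocyte, 1602 and 1256 at the 1-cell stage and 3633, 2024 and 3057 in the morula. On the probe set used, its morula difference of 4.93 (SE 0.52, adjusted p = 1.90e-04) was the largest rise of the 76 genes. Under other settings the difference was 2.26 to 5.34, and its second probe set, given below, did not pass. GOLGA4, a coiled-coil tether of the trans-Golgi, read 517, 266 and 27.6 in the oocyte and 2022, 1308 and 2978 in the morula. GOLGA4 differed by 3.42 (SE 0.81, adjusted p = 0.015), with 2581 on the 2-cell array and 369 on the 4-cell array. GOLGA5, a membrane-anchored golgin, read 78.9, 59.8 and 79.7 in the oocyte and 43.1 on the 16-cell array, then 1469.6, 896 and 1060.5 in the morula. GOLGA5 differed by 3.68 (SE 0.51, adjusted p = 8.43e-04). Among the 15 genes past the test with a log2 rise of 1 or more, it alone had not passed the midpoint between oocyte and morula on the 16-cell array. GOLGA1 and GOLGA2, tethers of the trans and cis sides of the Golgi, gave -0.40 and 0.53.

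GOLGA7 and GOLGA7B share the symbol stem with the tethers but encode partners of palmitoyltransferases, enzymes that attach a lipid to proteins. GOLGA7 read 5876, 5229 and 5643 in the oocyte, 8050.4, 7463 and 8249 on the 2-cell, 4-cell and 8-cell arrays and 3245, 2696 and 1580.5 in the morula. GOLGA7 differed by -1.21 (SE 0.30, adjusted p = 0.0189). GOLGA7B read 6399.8, 2831 and 6154 in the oocyte, 3108 on the 16-cell array and 385, 388 and 201 in the morula. GOLGA7B differed by -3.88 (SE 0.50, adjusted p = 5.63e-04). Without these 2, the golgins and TGOLN2 had 3 members that rose and none that fell. GOLGA4 missed the threshold between oocyte and morula with the mean of all its probe sets (adjusted p = 0.072) and in a fit of the compared stages alone (0.0591). GOLGA4's difference between oocyte and morula was 4.18 without oocyte array 1, 2.37 without oocyte array 3 and 2.08 without the arrays numbered 3. GOLGA7 missed the threshold between oocyte and morula without oocyte array 1 (adjusted p = 0.0586). For GOLGA7 the same held in a fit of the compared stages alone (0.063). GOLGA7 passed between oocyte and blastocyst without the arrays numbered 3 (adjusted p = 0.043). For GOLGA7 between oocyte and blastocyst, in 7 other settings (with each array centred on its median, in a fit of 1 averaged row per named gene, where its own signals are unchanged, after quantile normalization, with the replicate block, with the spike-in class as a term, without the variance trend and without the dimmest probe sets) the adjusted p was 0.0152 to 0.0473, past the threshold.

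**Figure D3:**
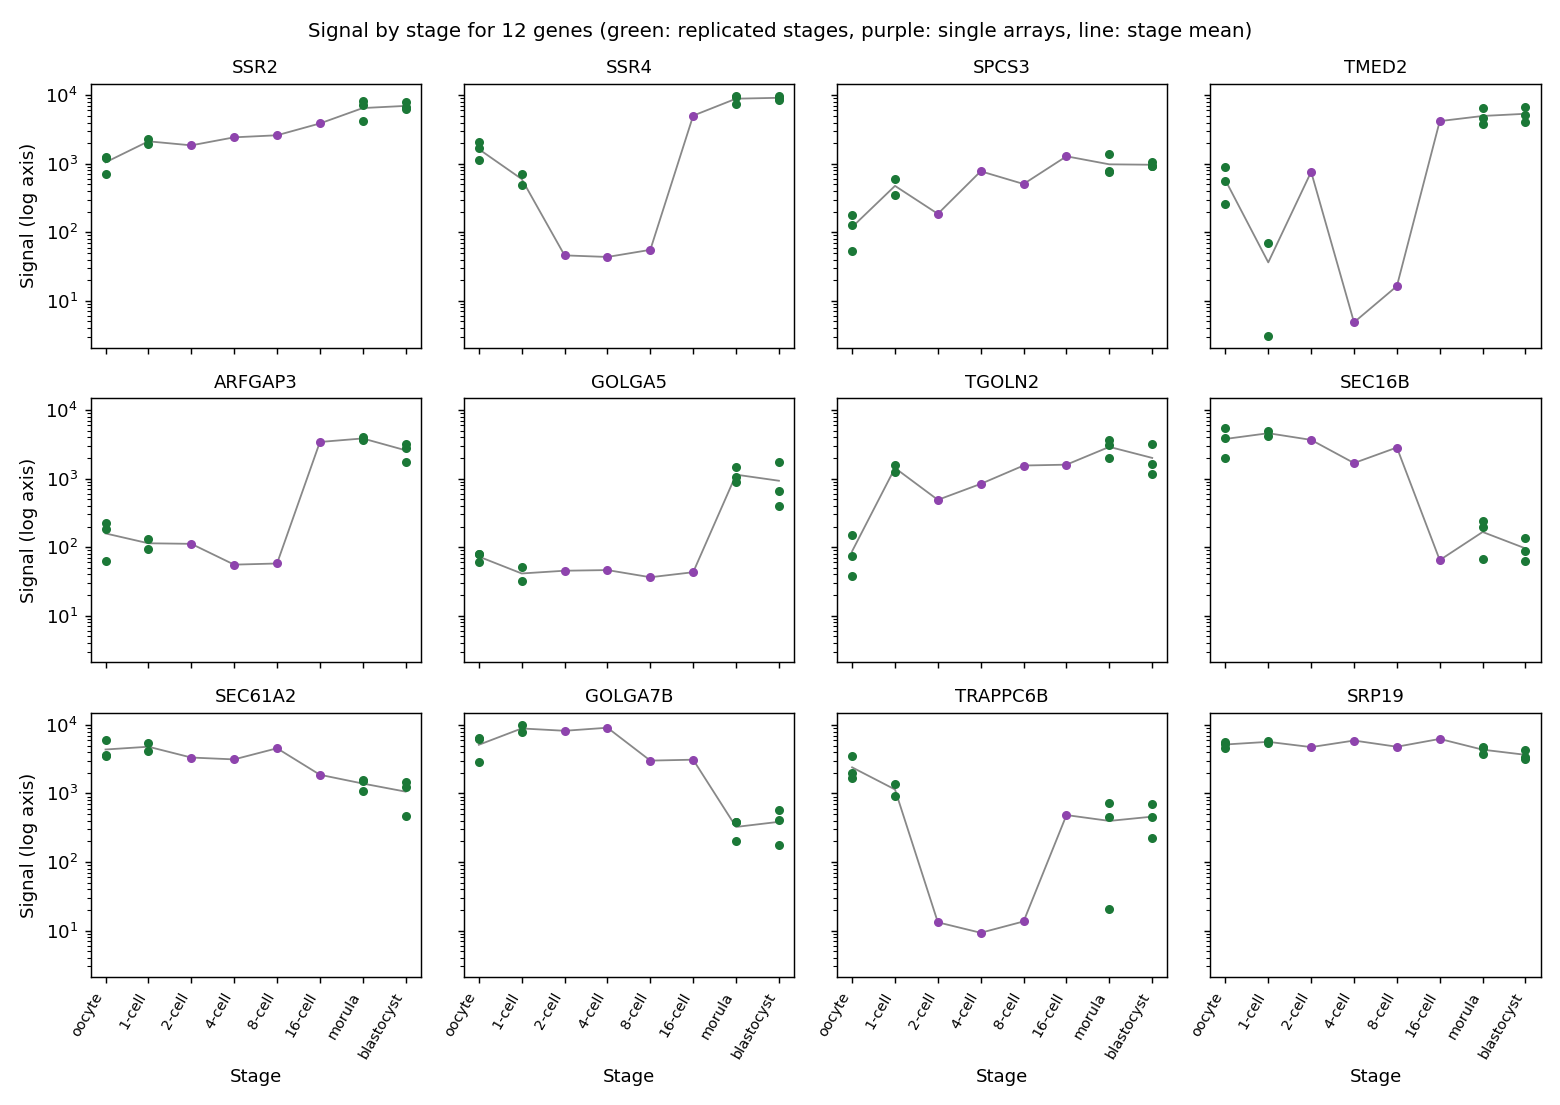
Signals of 12 genes, chosen after their values were seen, are plotted by stage on a log axis, with 1 point per array (green for the 4 stages with replicates, purple for the 4 single arrays) and a line through the stage means. SSR4 and TRAPPC6B drop to under 100 on the 2-cell, 4-cell and 8-cell arrays, ARFGAP3 steps up at the 16-cell array (3423), SEC16B steps down there (64.7), and SRP19 stays near its oocyte level.

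The 5 remaining SEC genes are not coat subunits: SEC22A, SEC22B and SEC22C belong to a family of vesicle fusion proteins, and SEC14L1 and SEC14L2 to a family of lipid-binding proteins. None passed between oocyte and morula. SEC22B, the SNARE of ER and Golgi traffic, read 483, 629 and 382 in the oocyte, 30.7 on the 8-cell array and 1348, 839 and 1275 in the morula (1.19, SE 0.86, adjusted p = 0.389). SEC22A read 13.7, 59.9 and 55.4 in the oocyte, 210.0 and 807 at the 1-cell stage, 129.6, 142 and 92.7 in the morula and 160.1, 693 and 199 in the blastocyst. Its differences were 1.32 in the morula and 2.46 (SE 0.66, adjusted p = 0.0264) in the blastocyst, where it passed. SEC22C gave -0.86. SEC14L1 read 1813 to 4117 in the oocyte and 2297 to 4093 in the morula (0.21, SE 0.47, adjusted p = 0.813), and SEC14L2 stayed under 100 on every array (-0.41). SEC22A missed the threshold between oocyte and blastocyst without blastocyst array 2 (adjusted p = 0.0866) and without oocyte array 1 (0.0978). For SEC22A the same held with the mean of all its probe sets (0.126) and in a fit of the compared stages alone (0.0592). SEC22A's difference between oocyte and blastocyst was 1.84 without blastocyst array 2.

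From the oocyte to the 1-cell embryo 1 of the 76 genes rose and none fell, against 0.284% higher and 0.0655% lower among all named genes; 11 of the 76 had an unadjusted p under 0.05. The gene was TGOLN2, at 74.2, 149 and 38.2 in the oocyte and 1602 and 1256 on the 1-cell arrays, a difference of 3.94 (SE 0.58, adjusted p = 0.0368). All 10 later arrays also lay above every oocyte array. The lowest 1-cell change was that of TMED2, -3.71 (SE 0.69, adjusted p = 0.0724), which did not pass. The median over the 76 genes was 0.16, against 0.05 over all named genes. TGOLN2's call was lost without 1-cell array 1 (adjusted p = 0.0917), without 1-cell array 2 (0.179) and without oocyte array 1 (0.105), in a fit of the compared stages alone (0.482) and with the mean of its 2 probe sets (0.577). TMED2 passed without 1-cell array 1 (adjusted p = 0.0234) and with the spike-in class as a term (0.0362), and COPE passed without the arrays numbered 3 (0.0493).

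Between the morula and the blastocyst none of the 76 genes passed by limma, against 0.164% higher and 0.0765% lower among all named genes, and 3 had an unadjusted p under 0.05. Those 3 were TRAPPC11 (338, 335 and 13.1 in the morula and 428, 1144 and 1661 in the blastocyst, 2.63, SE 1.01, adjusted p = 0.539), ARF4 (1.01, SE 0.42, adjusted p = 0.598) and SRP72 (-0.75, SE 0.33, adjusted p = 0.634). The median difference was -0.07, against -0.04 over all named genes. SEC11A differed by -0.16 (95% interval -0.73 to 0.40), SSR4 by 0.05 (95% interval -0.69 to 0.79) and SEC61B by -0.22 (95% interval -0.75 to 0.31). The intervals were wider for SPCS2, 0.43 (95% interval -1.16 to 2.03), KDELR3, 1.67 (95% interval -0.64 to 3.97), and SEC22A, 1.14 (95% interval -0.33 to 2.61).

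Between the oocyte and the blastocyst 14 genes rose and 6 fell, 18.4% and 7.9% of the 76, against 17.8% and 8.95% of all named genes, with a median of 0.70 against 0.10; without the arrays numbered 3 the count of rises was 22. Of the cell type markers all 8 oocyte markers were lower in the blastocyst (summed signal 887 to 927), and all 6 trophectoderm markers were higher (23394 to 25922). Of the 15 cumulus markers 4 were higher and 3 lower (10549 to 12062), 1 of 8 stromal and 1 of 5 sperm markers (812 to 1158) were higher, and 0 of 6 blood markers passed (233 to 570.0); their part was not tested. This comparison shares the oocyte arrays with the morula comparison, so the counts are not independent of it. Of the 16 genes that rose in the morula, 12 also passed in the blastocyst: SSR2, SSR4, SRP68, SPCS3, COPZ1, TMED1, TMED2, TMED3, ARFGAP3, GOLGA4, GOLGA5 and TGOLN2. SRP9, SEC11A, SPCS1 and TRAPPC1 passed in the morula but not in the blastocyst, where they gave 1.09, 0.70, 1.28 and 1.18. SEC61A2, SEC16B, SEC23A, TRAPPC2 and GOLGA7B fell in both, by 5.02 (SE 0.54, adjusted p = 2.17e-04) for SEC16B on the log2 scale in the blastocyst. ARF4, TRAPPC6B and GOLGA7 gave -0.48, -2.40 and -0.92 there and did not pass. TMED10, at 3497, 6007 and 2753 in the blastocyst (1.71, SE 0.45, adjusted p = 0.0244), SEC22A and KDELR2 passed in the blastocyst and not in the morula; the other 49 genes passed in none of the comparisons among the 3 stages. TMED10 missed the threshold between oocyte and blastocyst without blastocyst array 1 (adjusted p = 0.0586), without blastocyst array 2 (0.089) and without oocyte array 3 (0.0602). For TMED10 the same held in a fit of the compared stages alone (0.0502). COPZ1 missed the threshold between oocyte and blastocyst without blastocyst array 1 (adjusted p = 0.0783), without blastocyst array 2 (0.0926), without oocyte array 1 (0.0991) and without oocyte array 2 (0.0934). For COPZ1 the same held in a fit of the compared stages alone (0.0579). SEC61A2 missed the threshold between oocyte and blastocyst with the mean of all its probe sets (adjusted p = 0.626). TRAPPC2 missed the threshold between oocyte and blastocyst with the mean of all its probe sets (adjusted p = 0.73). COPZ1's difference between oocyte and blastocyst was 3.59 without oocyte array 3 and 3.88 without the arrays numbered 3. GOLGA4's difference between oocyte and blastocyst was 5.04 without oocyte array 1, 3.23 without oocyte array 3 and 3.45 without the arrays numbered 3. SEC23A's difference between oocyte and blastocyst was -4.07 without blastocyst array 2, -2.56 without blastocyst array 3 and -2.49 without the arrays numbered 3. TRAPPC2's difference between oocyte and blastocyst was -3.83 without blastocyst array 2 and -2.63 without blastocyst array 3.

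Several genes that missed the threshold between oocyte and blastocyst passed it in another setting, given here with their adjusted p. In a fit of 1 averaged row per named gene, SSR3 (0.0361), with the mean of its 2 probe sets, and SPCS1 (0.0454), whose 1 probe set has unchanged signals there, passed. In a fit of the compared stages alone, TRAPPC6B (0.0329) passed. With the replicate block, COPG1 (0.0249), SPCS2 (0.0179) and TRAPPC6B (0.0422) passed. With the spike-in class as a term, COPG1 (0.0346) and TRAPPC6B (0.0167) passed. Without blastocyst array 3, SEC14L2 (0.0385), SEC22B (0.0444), SEC23IP (0.0251) and SRP9 (0.0249) passed. Without oocyte array 2, SPCS1 (0.036) and SPCS2 (0.0387) passed. Without oocyte array 3, ARFGAP2 (0.0242), COPE (0.0167), COPG1 (0.0171) and TRAPPC4 (0.018) passed. Without the arrays numbered 3, ARFGAP2 (0.0311), COPE (0.0132), COPG1 (0.00616), SEC14L2 (0.0154), SEC23IP (0.0426), SPCS2 (0.0251), SRP9 (0.0294), TRAPPC11 (0.0175), TRAPPC4 (0.00414) and TRAPPC6B (0.011) passed. Without the dimmest probe sets, SPCS1 (0.0467) passed. COPE, COPG1, ARFGAP2 and TRAPPC4 share oocyte array 3 as the array whose removal brought them past the threshold, and on each it was their highest oocyte signal, as for ARFGAP2 at 63.1, 169.7 and 1413 and TRAPPC4 at 136, 210.2 and 1835.

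The 4 single cleavage arrays give signals between the 1-cell stage and the morula, without a test, as values of 1 array each. They do not fix when a signal shifted. Genes past the test between oocyte and morula, with a log2 difference of 1 or more in either direction, were placed on a scale. On it the oocyte mean is 0 and the morula mean is 1 on the log2 scale. The 15 that rose had median positions of 0.46, 0.35, 0.31 and 0.85 on the 2-cell, 4-cell, 8-cell and 16-cell arrays. Their quartiles were 0.15 to 0.66, -0.19 to 0.78, -0.22 to 0.66 and 0.66 to 0.98. The 1588 genes of the whole array that rose by the same rule had medians of 0.05, 0.12, 0.06 and 0.87. Their quartiles were -0.20 to 0.47, -0.14 to 0.55, -0.18 to 0.53 and 0.53 to 1.09. These medians were lower than those of the secretory genes on the first 3 of these arrays and close on the 16-cell array. The quartiles overlapped on all 4 arrays. The difference was not tested. By the 16-cell array 14 of the 15 (93.3%) had passed the midpoint, against 1216 of the 1588 (76.6%). The 8 genes that fell had median positions of 0.08, 0.23, 0.09 and 0.63. The 758 genes of the array that fell by the same rule had 0.09, 0.06, 0.18 and 0.54.

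A difference of 4-fold or more between neighbouring single arrays was met most often from the 8-cell to the 16-cell array, where 19 genes (25.0%) were higher and 5 (6.6%) lower, against 18.9% and 6.03% of all named genes. The 19 included ER-entry genes (SSR3, SSR4 and SRP9), the COPII genes SEC24B, SEC24C and SEC23IP, TMED2 and TMED7, KDELR3, ARF5, ARFGAP1 and ARFGAP3, TRAPPC2L, TRAPPC4 and TRAPPC6B, GOLGA2 and GOLGA4, and SEC22B and SEC22C. The 5 that were lower were SEC62, SEC16B, ARF3, TRAPPC2 and GOLGA1. From the 4-cell to the 8-cell array 2 were higher (SEC23A and ARF3, 2.6%) and 9 lower (11.8%: SSR3, COPB2, KDELR3, ARF5, ARFGAP1, TRAPPC2L, TRAPPC4, SEC22B and SEC22C), against 4.42% and 10.5%. From the 2-cell to the 4-cell array 8 were higher (10.5%: SSR1, SRP14, SEC23A, TMED9, ARFGAP2, TRAPPC11, TRAPPC2L and SEC22C) and 5 lower (6.6%: SRP9, TMED2, TMED6, GOLGA4 and SEC22A), against 7.37% and 4.21%. The median steps were 0.06, -0.16 and 0.44 for the 76 genes and 0.04, -0.06 and 0.18 for all named genes. Other measures differed between the 8-cell and 16-cell arrays as well. The middle to 3′ ratio went from 0.0115 to 0.475 for cyclophilin and from 0.0571 to 0.134 for GAPDH, the trophectoderm marker sum from 670.0 to 3604 and the stromal sum from 656 to 4723. Of the stromal markers COL1A2 went from 76.6 to 2432, VIM from 10.0 to 1959 and DCN from 15.2 to 80.1, with COL1A1, COL3A1 and POSTN under 50 on both arrays. Their part in these steps was not tested.

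**Figure D4:**
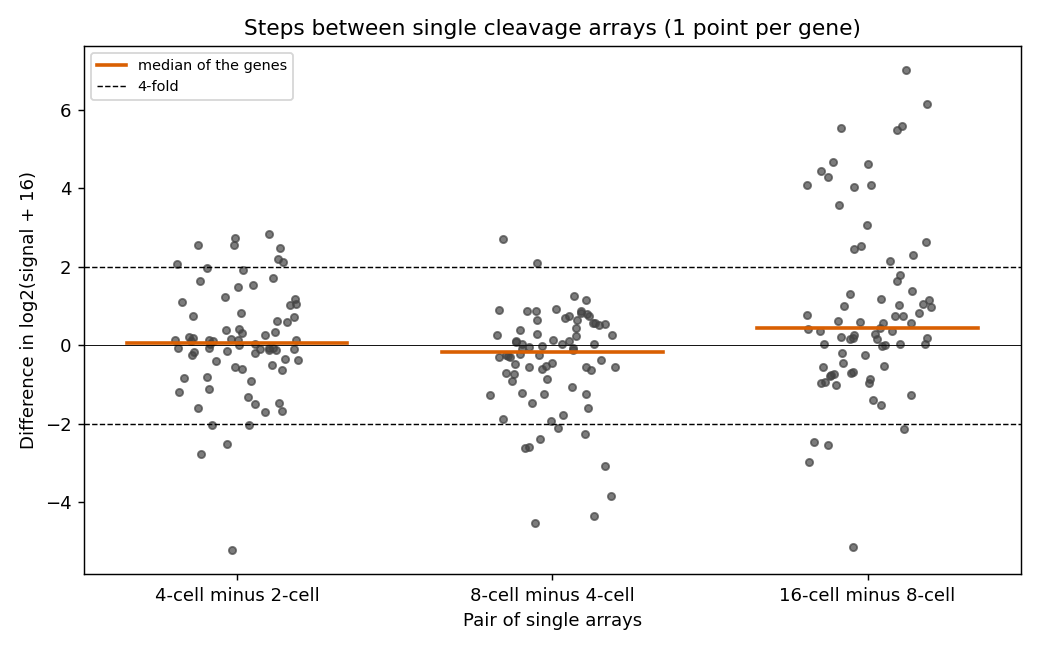
Each point is 1 of the 76 genes, placed by its log2 difference of signal + 16 between neighbouring single arrays; orange lines mark the medians and dashed lines 4-fold differences. The 19 genes above the upper dashed line at the 16-cell step outnumber the 8 and the 2 at the earlier steps.

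One pattern was described after the values were seen: 8 genes (10.5%) had all of the 2-cell, 4-cell and 8-cell arrays below every oocyte and every morula array, against 4.16% of all named genes. They were SSR4, SRP14, SEC23IP, TMED10, TMED7, TRAPPC6B, GOLGA2 and GOLGA5. The depth of the drop differed: TMED7 read 4544, 2588 and 1416 against 5039.6 to 7070.3 in the oocyte, while SEC23IP read 22.7, 13.8 and 37.0 against 99.0 to 298 and then 1290.1 on the 16-cell array. GOLGA2 read 109, 111, 17.4 and 636 on the 4 single arrays. The opposite pattern, all of them above, was met by SRP68 and GOLGA7 (2.6%), against 3.42%.

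Of the 76 genes 48 had 1 probe set and 28 had several, and for some of these the probe sets disagreed, each read against itself and not in level against the other. TRAPPC2's second probe set read 81.3, 87.4 and 20.7 in the oocyte and 285, 362 and 772 in the blastocyst. It passed in the opposite direction there, 2.64 (SE 0.70, adjusted p = 0.0248), against -3.23 (SE 0.65, adjusted p = 0.00671) for the one used. TGOLN2's second probe set read 1804, 2013 and 481 in the oocyte, 867 and 428 at the 1-cell stage and 2082, 1967 and 171 in the morula. Its morula difference was -0.41 (SE 0.94, adjusted p = 0.816), so the 1-cell and morula rises rest on 1 of its 2 probe sets. The 4 other probe sets of SEC61A2 gave morula differences of 1.30, -0.27, -0.32 and -0.29, none past the test, and one of them passed at the 1-cell stage with 2.42 (SE 0.40, adjusted p = 0.0463). The second probe sets of SEC23A, TRAPPC6B, SRP68 and GOLGA4 gave -0.37, -0.66, 0.51 and 0.34 and did not pass, nor did those of COPZ1 at 0.26 and 0.03. For ARFGAP3 both passed, the second at 2.92 (SE 0.88, adjusted p = 0.0447), and for SPCS3 2 of 3 passed, the second at 3.21 (SE 0.51, adjusted p = 0.0017) and the third at -0.41 not. For SSR3, TMED10 and ARFGAP1 a second probe set passed where the one used did not. It gave 3.10 (SE 0.77, adjusted p = 0.0188) for SSR3. For TMED10 it gave 3.83 (SE 1.00, adjusted p = 0.0233), and for ARFGAP1 0.66 (SE 0.15, adjusted p = 0.0124).

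**Figure D5:**
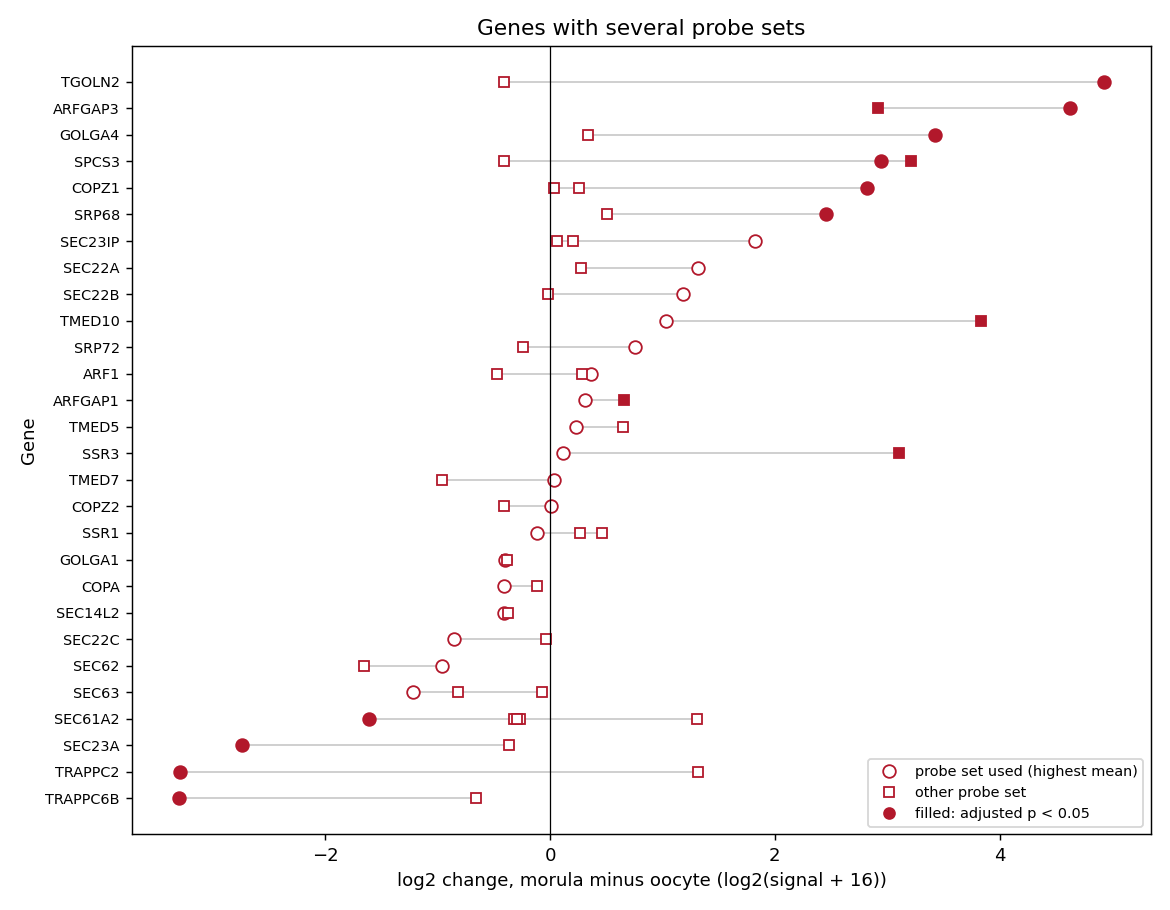
Each row is 1 of the 28 genes with several probe sets, circles for the probe set used and squares for the others, placed by the log2 difference between morula and oocyte; filled symbols passed the test. TGOLN2 spans -0.41 to 4.93, TRAPPC2 -3.29 to 1.31, and both ARFGAP3 symbols are filled.

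The rest of the route was read from 9 lists of 173 genes, of which 147 were measured: 37 rose (25.2%) and 13 fell (8.8%) between oocyte and morula, 70 having an unadjusted p under 0.05, with a median of 0.49. None passed from oocyte to 1-cell embryo (17 with an unadjusted p under 0.05) or from morula to blastocyst (13). Of 15 genes of protein N-glycosylation 5 rose and 1 fell. MAGT1, 4.52 (SE 1.09, adjusted p = 0.0165), OST4, 3.22 (SE 0.78, adjusted p = 0.0166), and DDOST, 3.08 (SE 0.80, adjusted p = 0.0231), are all parts of the oligosaccharyltransferase that glycosylates proteins beside the channel. Of 16 genes of the SRP receptor and of membrane insertion 5 rose and 1 fell, among them 3 subunits of the ER membrane complex, an insertase. These were EMC6, 4.19 (SE 0.48, adjusted p = 3.04e-04), EMC4, 3.28 (SE 0.52, adjusted p = 0.00176), and EMC7, 2.81 (SE 0.63, adjusted p = 0.0114). Of 18 ER chaperones and folding enzymes 6 rose and 2 fell. The largest changes were those of the HSPA5 cofactor DNAJB9, 5.71 (SE 0.66, adjusted p = 2.96e-04), the secreted ER stress protein MANF, 3.86 (SE 0.42, adjusted p = 2.26e-04), and the prolyl isomerase FKBP2, 3.63 (SE 0.99, adjusted p = 0.0286). Of 16 genes of the unfolded protein response and ER-associated degradation 2 rose and 4 fell. SELENOS, which helps draw proteins out of the ER, gave 5.54 (SE 0.65, adjusted p = 3.19e-04), and the extraction ATPase VCP 2.28 (SE 0.22, adjusted p = 1.26e-04). The stress transcription factor DDIT3 fell, with -2.20 (SE 0.68, adjusted p = 0.0476).

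Further along the route, of 12 small GTPases and exchange factors 2 rose and 1 fell. SAR1A, the GTPase that starts COPII assembly, gave 3.74 (SE 0.53, adjusted p = 9.48e-04) and its exchange factor PREB 2.71 (SE 0.50, adjusted p = 0.00407). RAB6A, a Golgi GTPase, fell, with -1.22 (SE 0.35, adjusted p = 0.0366). Of 14 cargo receptors and ER-Golgi membrane proteins 2 rose and 1 fell. YIF1A, 4.08 (SE 0.59, adjusted p = 0.00103), and BCAP31, 1.87 (SE 0.38, adjusted p = 0.00651), were higher, and the related BCAP29, -3.59 (SE 0.71, adjusted p = 0.00608), was lower. Of 23 SNAREs and tethers 4 rose and 1 fell. The SNARE STX6 fell, with -5.14 (SE 0.70, adjusted p = 7.35e-04), and the SNARE VTI1B, 4.77 (SE 0.80, adjusted p = 0.00246), and the COG tether subunit COG2, 3.02 (SE 0.44, adjusted p = 0.00106), rose. Of 20 clathrin coat and adaptor genes 7 rose and 2 fell. The largest changes were in the Golgi adaptor GGA1, 5.00 (SE 0.46, adjusted p = 9.10e-05), and the endocytic adaptor subunits AP2B1, 4.79 (SE 0.75, adjusted p = 0.00165), and AP2S1, 4.07 (SE 0.71, adjusted p = 0.00309). Of 13 exocyst and exocytosis genes 4 rose and none fell. The largest were the exocyst subunit EXOC1, 4.93 (SE 0.71, adjusted p = 0.00104), the SNARE VAMP8, 3.28 (SE 0.49, adjusted p = 0.00132), and the GTPase RAB8A, 2.81 (SE 0.72, adjusted p = 0.0214). These shares stand beside the 17.7% and 8.63% of all named genes and were not set against them by a test. Other settings and other probe sets are not given for the genes of the 9 lists. How far these calls depend on 1 array or 1 probe set was not examined.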

How the data were processed

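The values are linear intensities that the authors deposited in 1 table of 24128 probe sets by 15 arrays; RNA was amplified in 3 rounds, per the labels' protocols. How probes were summarised and arrays scaled, and with which software, is not given in the sources used here. No detection calls were used, so low signals have no stated background. Signals were used as deposited. Genes were named from the platform annotation, checked against RefSeq (ARS-UCD2.0); 13292 of the 24016 probe sets without controls had 1 symbol, 86 several and 10638 none, and all 76 genes had a RefSeq identifier with the same symbol. The probe set of highest mean log2 value represented each gene. The test was limma 3.58.1 in R 4.3.3 (lmFit and eBayes with a variance trend) on log2(signal + 16), with all 15 arrays and 1 mean per stage, and Benjamini-Hochberg adjustment over 24016 probe sets at 0.05; it was tested on simulated data first. Its p-values reflect only how these arrays spread, which may be partly technical. Single arrays had no test; differences of 4-fold or more between them are described. The genes, roles, lists and tests were chosen with earlier results of these data known. Genes were named with values, per role and comparison, as up to 4 past the test by size of change, else the 2 of highest mean. The KDEL receptors, TGOLN2, the 3 smallest morula changes among bright genes and genes with opposed probe sets were also named. List genes were named by up to 3 per list. The remaining genes of the 76 are given as values only. Same-numbered oocyte, morula and blastocyst arrays deviated together (correlations of 0.106 to 0.306, each over 0.1). The replicate number was therefore run as a block in an alternative, and the main test has no pairing. All arrays numbered 3 gave spike-in signal, so for them number and spike-in class cannot be told apart. 1-cell 2, with spike-in signal as well, correlated with oocyte 3 (0.192), morula 3 (0.175) and blastocyst 3 (0.16). Some differently numbered arrays correlated more: morula 1 with blastocyst 2 (0.304, against 0.195 with blastocyst 1), morula 2 with blastocyst 1 (0.181, against 0.106) and oocyte 2 with morula 1 (0.155, against 0.107). Same-numbered oocyte and 1-cell arrays gave 0.183 and -0.115. Alternatives were other scalings, pseudocounts, filters and variance models, the replicate block, leaving out arrays, the spike-in class and 1 row per named gene, the mean of its probe sets. No sequences or coordinates were used.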

Additional observations from a re-analysis of the deposited data

How the results depend on the processing

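Leaving aside the fits on 1 spike-in class, 17 alternatives were run for each of these comparisons. Between oocyte and morula 13 of the 24 calls passed under all 17, and all 24 kept their direction there. Between oocyte and blastocyst 14 of 20 passed under all 17 and all 20 kept direction. The 17 include a fit of the compared stages alone, which gave 12 higher and 6 lower in the morula. Leaving out 1 array at a time gave 13 to 19 genes higher and 4 to 8 lower in the morula, 11 to 17 and 5 to 6 in the blastocyst against the oocyte, 0 to 1 and 0 to 1 at the 1-cell stage, and 0 and 0 between morula and blastocyst; a stage left with 1 array was assumed to vary like the others. On the arrays with spike-in signal alone, no gene was higher or lower by limma in any comparison (0 in each, with 15 of 76 at an unadjusted p under 0.05 in the morula, 15 in the blastocyst against the oocyte and 4 at the 1-cell stage), in a fit of fewer arrays. On the arrays without it, 23 were higher and 6 lower in the morula. The first fit holds 1 array each of morula, blastocyst and 1-cell embryos, and the second 1 array each of oocytes and 1-cell embryos, all assumed to vary like the others. All 24 morula and all 20 blastocyst calls kept their direction in both. At the 1-cell stage 0 genes were higher, in place of 1, in a fit of the compared stages alone, with the replicate block, on the arrays without spike-in signal (24 of 76 at an unadjusted p under 0.05) and in the fit of 1 averaged row per named gene, and 2 without the arrays numbered 3. There 1 was lower, in place of 0, with the replicate block and with the spike-in class as a term, TMED2 in both. Without the arrays numbered 3, 22 genes rose between oocyte and blastocyst in place of 14. With the replicate block 22 genes were higher and 12 lower in the morula and 16 and 8 in the blastocyst against the oocyte, with all 24 and all 20 calls kept. It changed no other call than those given beside the genes. At the 1-cell stage, where same-numbered arrays did not all deviate together, TGOLN2 missed with this block (adjusted p = 0.0725). Of 3450 values of named genes under alternatives, 65 moved past the threshold and 121 fell short of it; 210 had another sign, none of which passed with either sign. The causes were not tested. Signals under 100 on every array (COPG2, TRAPPC9 and SEC14L2) have no stated background and bear no reading of change.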

Other observations

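Some of these genes had their highest stage value on a single array. Of the 76 genes, 20 (26.3%) were highest on the 16-cell array, as were 20.7% of all named genes; 11 (14.5%) were highest in the morula, against 12.9%, and 12 (15.8%) in the blastocyst, against 14.5%. ARFGAP1 read 11.5 on the 8-cell, 1231 on the 16-cell and 23.9 to 70.7 on the morula arrays. SEC24B, a COPII cargo adaptor, read 160.3, 2978 and 76.6 to 809.9 on the same arrays. TMED6, a p24 family member, read 182 on the 2-cell array and 44.1 or less on the other 14. These are values of 1 array each, with no replicate.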
